A study of Bos taurus with 79 samples.

Results

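The endometrium of cyclic heifers with high progesterone was compared between day 13 and day 16 of the estrous cycle, with 5 arrays on each day. These 10 samples were chosen by day, heifer status and progesterone level in their labels, out of 79 samples in the whole series. All heifers were cross-bred beef heifers whose estrous cycles had been synchronized, each sample was a piece of endometrium from 1 slaughtered animal, and each was measured on 1 Affymetrix bovine array. Cyclic heifers with high progesterone (CH) were controls that were not inseminated and carried an intravaginal device releasing progesterone, put in on day 3 and left in until slaughter. The labels describe the rise in blood progesterone as transient, and no blood values were used here. Cyclic heifers with normal progesterone (CN) had no device, and pregnant heifers with high progesterone (PH) had the device and were pregnant at slaughter by their labels. Pregnant heifers with normal progesterone (PN) are mentioned for a few values. CN, PH and PN also had 5 arrays on each of the 2 days. The question was which genes changed over the days in which a cow that is not pregnant prepares to end her luteal phase, under progesterone raised early.

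Progesterone from the corpus luteum keeps the uterus ready for an embryo, and in the second week of the cycle the endometrium loses its own progesterone receptor from the epithelium. Near the end of the luteal phase the epithelium gains oxytocin receptors, oxytocin then drives pulses of prostaglandin F2 alpha, and these end the life of the corpus luteum. In pregnancy the elongating conceptus secretes interferon tau, which holds back the oxytocin receptor and turns on interferon-stimulated genes in the endometrium. Uterine glands meanwhile release histotroph, a mixture of proteins, sugars, lipids and amino acids that feeds the conceptus.

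The deposited values were log2 values of 24016 probe sets, which represented 9155 named genes. Where several probe sets named 1 gene, the one with the highest mean over the 79 arrays stood for it. A difference of 1 on this scale is a 2-fold difference. Values are given as mean ± SD over arrays, and differences as day 16 minus day 13 ± the SE of the fit, whose spread per probe set is shared by all 16 groups of the series. A gene counted as called at an adjusted p under 0.05 (limma, Benjamini-Hochberg over all 24016 probe sets). Levels under 3 lay near the floor of the values, where differences are compressed. Markers of stroma and epithelium were present: the 13 stromal fibroblast markers had array means between 10.04 and 10.62 in CH heifers and the 17 epithelial markers between 7.51 and 8.04. Of 10 conceptus markers 9 stayed under 3 on both days. The 11 smooth muscle markers had array means between 7.15 and 8.47, so these lists do not show that the pieces were free of uterine muscle.

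Of the 5 day 16 arrays 3 stood apart by their technical controls. On the day 16 arrays of CH replicates 3, 4 and 5 the spiked control bioC lay above bioB by 0.78, 0.84 and 0.83. On CH day 16 replicates 1 and 2 it lay below bioB, at -0.77 and -1.04, and on the day 13 arrays of CH it ran from -1.15 to -0.98. In the whole series 75 arrays lay between -1.29 and -0.60, and the only other array above 0 was from CN on day 5, at 0.71. The 3′ minus 5′ difference of the EIF4E control was 5.07, 5.08 and 4.43 on the 3 arrays, above all 75 arrays with bioC under bioB (highest 4.12). The same difference for the spiked control thr was 1.98 to 2.46 on them, against 1.16 to 1.48 on the other 7 CH arrays of the comparison. Against all other 76 arrays, 107 probe sets were higher and 128 lower on every one of the 3. No replicate on day 13 of CH shared this pattern, so results that rest on these 3 arrays are also given without them. That leaves CH day 16 replicates 1 and 2, with an SE that comes from the spread shared by all groups. Some results are also given with a term for the arrays with bioC above bioB. What set these arrays apart was not tested.

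**Figure D1:**
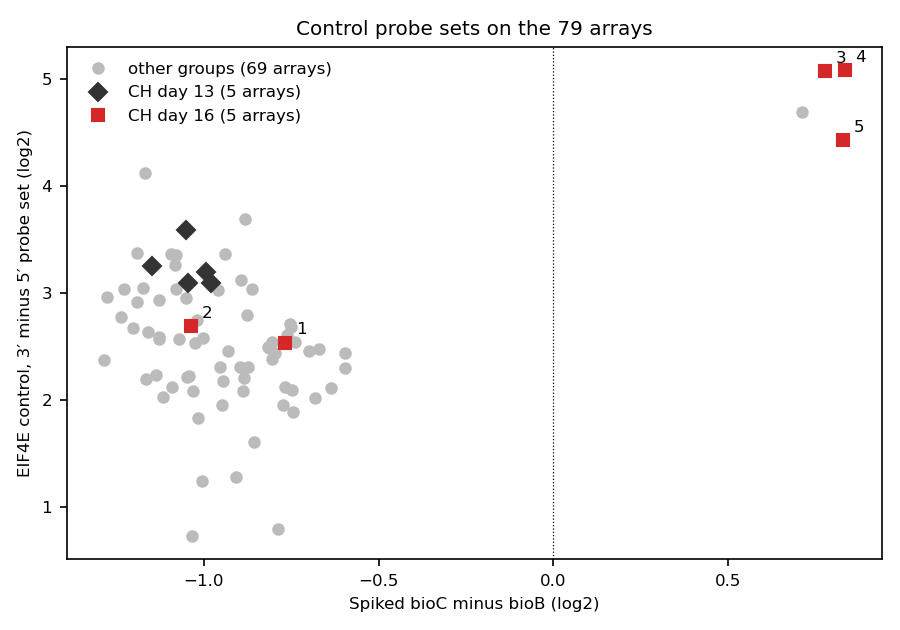
Spiked bioC minus bioB (x axis, log2) against the 3′ minus 5′ difference of the EIF4E control (y axis, log2), 1 point per array. Numbers are the replicates of CH on day 16. Replicates 3, 4 and 5 lie at 0.78 to 0.84 on the x axis, while replicates 1 and 2 lie at -0.77 and -1.04 among the other arrays.

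A small share of the genes was called. Among the 9155 genes 38 were called (0.415%), 17 higher on day 16 (0.186%) and 21 lower (0.229%), and among all probe sets 80 were called (0.333%), 44 higher and 36 lower. The 17 genes were higher by 0.19 to 2.06 and the 21 lower by 0.37 to 2.80 on the log2 scale, and both ends of the higher range belong to genes near the floor on at least 1 of the days. The groups did not overlap for 11 of the 17 and 9 of the 21, against 1.68% of all genes not overlapping upward and 1.18% downward. At an unadjusted p under 0.05 stood 1032 genes, and the median difference over all genes was 0.03. By comparison, 2566 genes (28%) were called between day 7 and day 13 in CH heifers, whose day 7 group held 4 arrays.

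The calls rested on the spread shared by all groups and on single arrays. A fit of the 10 compared arrays alone called 0 probe sets, with 2427 at an unadjusted p under 0.05 (limma). Without CH day 16 replicate 3 the count of probe sets fell to 13, and without CH day 16 replicate 1 or 2 it was 250 or 235. Leaving out the 3 arrays that stand apart gave 64 called probe sets, of which 17 were also among the 80. Of the 17 higher genes all 17 kept their direction and 5 their call without them, and of the 21 lower genes 20 kept their direction and 2 their call. With each array centred on its median 65 probe sets were called, 43 higher and 22 lower. A term for the arrays with bioC above bioB left 20, and array weights gave 4904.

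**Figure D2:**
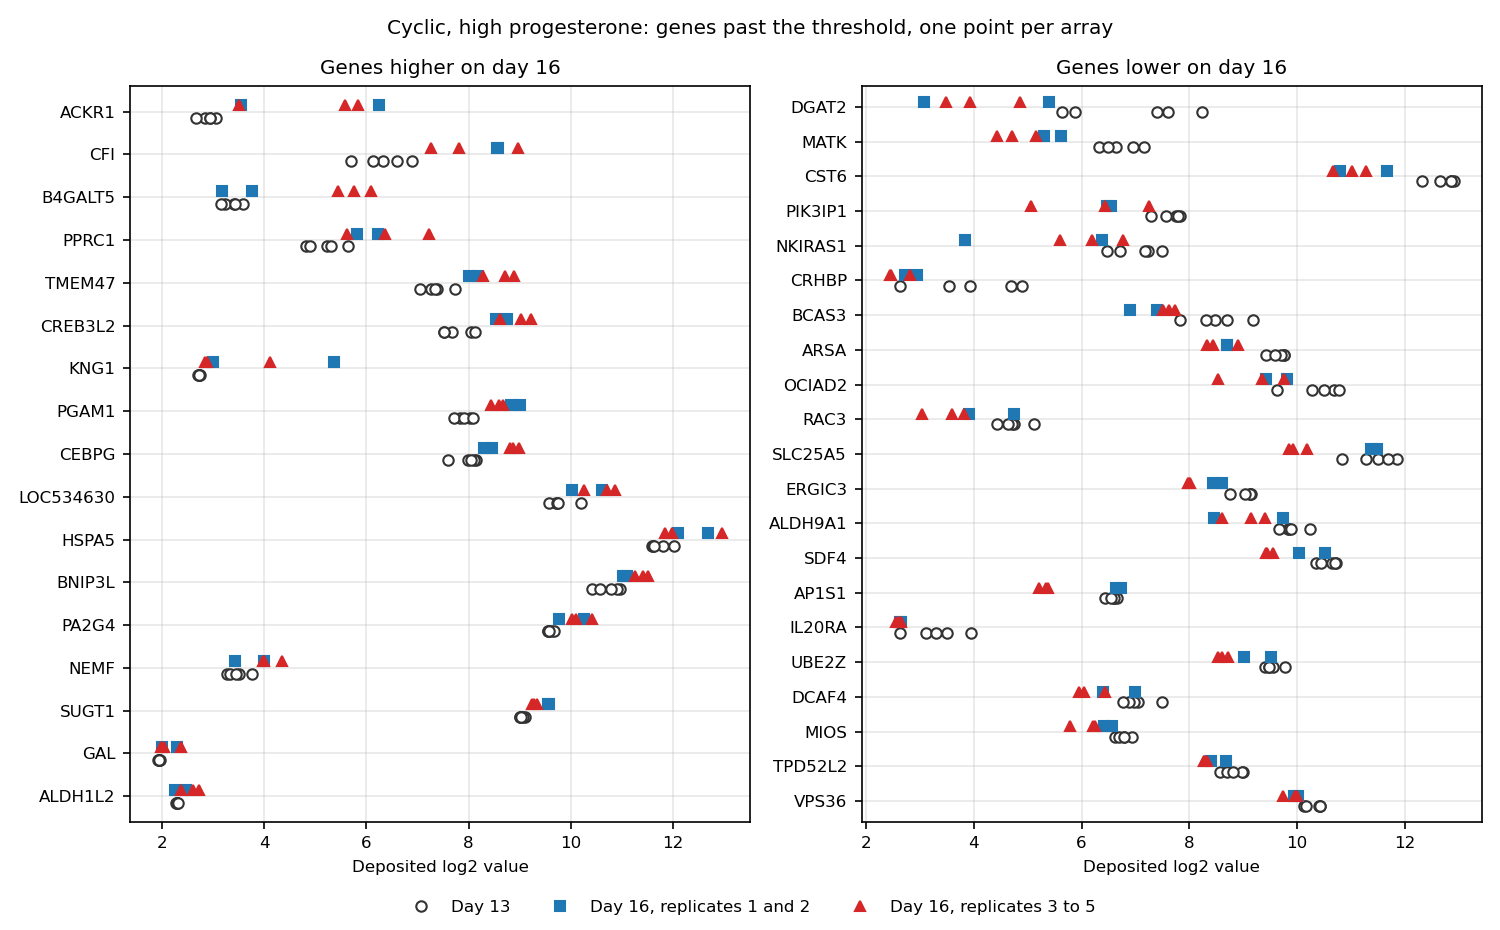
Deposited log2 value (x axis) of the 17 genes called higher and the 21 called lower on day 16 in CH heifers, 1 point per array. Open circles are day 13, squares are day 16 replicates 1 and 2, and triangles are day 16 replicates 3 to 5, whose controls stand apart. For ACKR1, MATK, CST6 and ARSA both squares and triangles lie beyond the day 13 arrays, whereas for SLC25A5 and AP1S1 only the triangles lie below the day 13 arrays.

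Among the genes that rose, ACKR1, the atypical chemokine receptor of venular endothelium and red cells (gene ID 528076), had the largest difference. No genome positions are given, since the array values carry none. Its day 13 values were 2.83, 3.05, 2.93, 2.66 and 2.94, near the floor, and its day 16 values 6.24, 3.55, 5.83, 5.57 and 3.50 for replicates 1 to 5. Every day 16 array lay above every day 13 array, but the day 16 arrays themselves fell into 3 high and 2 low values. The difference was 2.06 ± 0.29, compressed by the day 13 values near the floor, with an adjusted p of 3.52e-05 (limma), and it stayed called without any 1 of the 10 arrays (1.73 to 2.42). With the 3 arrays that stand apart left out it was 2.01 ± 0.34 (adjusted p = 0.000845, limma), over 2 day 16 arrays at 6.24 and 3.55. These SEs come from the spread shared by all groups, not from the day 16 arrays of CH. In a fit of the 10 compared arrays alone the difference was 2.06 ± 0.55 and was not called (adjusted p = 0.293, limma). In CN heifers ACKR1 differed by 0.21 ± 0.29 and in PH heifers by 0.56 ± 0.29, and neither was called.

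CFI, the complement factor I protease that cleaves C3b and C4b (gene ID 513197), was at 6.33, 5.70, 6.60, 6.13 and 6.89 on day 13 and at 8.56, 8.57, 7.26, 8.97 and 7.82 on day 16. The groups did not overlap, and the 2 day 16 arrays with usual controls were among the 3 highest. The rise was 1.91 ± 0.46, or 3.76-fold (adjusted p = 0.0425, limma). It was 2.24 ± 0.61 without the 3 arrays that stand apart (adjusted p = 0.0887, limma), and 6 of the 10 omissions of 1 array ended the call (adjusted p up to 0.121, limma): those of CH day 13 replicates 1, 2, 3 and 4 and CH day 16 replicates 3 and 4.

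PGAM1, the phosphoglycerate mutase of glycolysis (gene ID 404148), rose from 7.83, 7.71, 8.03, 7.92 and 8.08 to 9.01, 8.83, 8.68, 8.60 and 8.44. Its highest values came from CH day 16 replicates 1 and 2, and no day 16 array reached down to day 13. The difference of 0.80 ± 0.17 (adjusted p = 0.0146, limma) became 1.00 ± 0.23 without the 3 arrays that stand apart (adjusted p = 0.0259, limma). It lost its call without CH day 13 replicate 2 or CH day 16 replicate 3 (highest adjusted p = 0.0592, limma). SUGT1, a co-chaperone of HSP90, rose by 0.36 ± 0.09 from 9.04 ± 0.05 to 9.40 ± 0.15 (adjusted p = 0.0436, limma), and by 0.53 ± 0.12 without the 3 arrays (adjusted p = 0.022, limma).

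Genes of the secretory pathway and its stress response were among those that rose, but other genes of the pathway fell. ERGIC3 differed by -0.83, SDF4 by -0.79 and AP1S1 by -0.72, and they are described with the lower genes. CREB3L2, a membrane-bound transcription factor that is freed by endoplasmic reticulum stress, was at 7.67, 7.52, 7.52, 8.04 and 8.13 on day 13 and at 8.53, 8.75, 9.22, 8.62 and 9.03 on day 16. All day 16 arrays exceeded all day 13 arrays, and the difference was 1.05 ± 0.22 (adjusted p = 0.0107, limma), or 0.86 ± 0.29 without the 3 arrays (adjusted p = 0.223, limma). Leaving out CH day 16 replicate 3 alone ended its call (adjusted p = 0.0699, limma). HSPA5, the chaperone BiP of the endoplasmic reticulum, rose by 0.58 ± 0.14, from 11.74 ± 0.18 to 12.32 ± 0.48 (adjusted p = 0.0438, limma), with day 16 values of 12.10, 12.70, 12.97, 11.85 and 11.99. Its day 16 replicates 4 and 5 lay below the highest day 13 array of 12.02. Another of its probe sets gave 0.57 and the remaining one 0.09, neither called. The call ended without CH day 13 replicate 1, 2, 3 or 4 or CH day 16 replicate 2 or 3 (adjusted p up to 0.311, limma).

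B4GALT5, a galactosyltransferase that makes lactosylceramide, separated the day 16 arrays into sets. It was 3.41, 3.23, 3.58, 3.15 and 3.42 on day 13, 3.16 and 3.76 on day 16 replicates 1 and 2, and 6.09, 5.44 and 5.75 on replicates 3, 4 and 5. The difference of 1.48 ± 0.30 (adjusted p = 0.00852, limma) lost its call without CH day 16 replicate 3 and was 0.10 ± 0.29 without those 3 arrays, and a second B4GALT5 probe set gave 0.05. KNG1, the kininogen precursor, showed a different split: day 13 ran from 2.69 to 2.73, and day 16 gave 2.99, 5.37, 2.87, 2.83 and 4.10, so that its rise of 0.92 ± 0.20 (adjusted p = 0.0169, limma) came largely from replicates 2 and 5 and ended without either of them. When the 3 arrays that stand apart were left out, replicate 2 being kept, KNG1 differed by 1.47 ± 0.22 (adjusted p = 0.000101, limma). A second KNG1 probe set gave 0.245 with all arrays and was not called (adjusted p = 0.094, limma).

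The other higher genes came from several functions. TMEM47, a junction-associated membrane protein, rose by 1.06 ± 0.26 and PPRC1, a coactivator of mitochondrial biogenesis, by 1.07 ± 0.22. The other PPRC1 probe sets gave 0.986, 0.014 and 0.057 and were not called (adjusted p 0.0887 to 0.91, limma). CEBPG, a bZIP transcription factor, rose by 0.71 ± 0.18, BNIP3L, a mitophagy receptor, by 0.53 ± 0.13, and PA2G4, an ERBB3-binding growth regulator, by 0.52 ± 0.12. NEMF, a ribosome quality control factor, rose by 0.49 ± 0.09, and the unnamed locus LOC534630 by 0.70 ± 0.17. GAL, the neuropeptide galanin, and ALDH1L2, a mitochondrial folate enzyme, differed by 0.20 ± 0.04 and 0.19 ± 0.04 at levels under 3 on both days. Of these 9 genes GAL kept its call without the 3 arrays (adjusted p = 0.034, limma). Their adjusted p values were 0.00568 to 0.0487 (limma).

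Among the genes that fell, DGAT2, the enzyme of the last step of triglyceride synthesis (gene ID 404129), had the largest difference. It was at 8.24, 7.61, 5.64, 5.88 and 7.39 on day 13 and at 5.39, 3.08, 3.92, 4.85 and 3.49 on day 16. The groups did not overlap, with the highest day 16 value of 5.39 just under the lowest day 13 value of 5.64. The difference was -2.80 ± 0.62, or 6.99-fold (adjusted p = 0.0199, limma), and it was -2.72 ± 0.84 without the 3 arrays that stand apart (adjusted p = 0.155, limma). It was also called in CN heifers, at -2.62 ± 0.62 (adjusted p = 0.0195, limma), in PH heifers, at -2.94 ± 0.62 (adjusted p = 0.00158, limma), and in PN heifers, at -2.96 ± 0.62 (adjusted p = 0.00283, limma). The call in CH ended without CH day 13 replicate 1, 2 or 5 or CH day 16 replicate 3 or 5 (adjusted p up to 0.111, limma).

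CST6, the secreted cysteine protease inhibitor cystatin M/E (gene ID 503685), was at 12.91, 12.85, 12.65, 12.32 and 12.85 on day 13 and at 11.67, 10.80, 11.28, 10.67 and 11.02 on day 16. Both usual day 16 arrays and the other 3 lay under all day 13 arrays. The difference of -1.63 ± 0.34, or 3.09-fold (adjusted p = 0.0105, limma), remained called without any 1 array (adjusted p up to 0.0455, limma), and it was -1.48 ± 0.45 without the 3 arrays (adjusted p = 0.153, limma). The gene had risen by 3.23 between day 7 and day 13 in CH heifers (adjusted p = 1.93e-10, limma). In CN heifers it stayed at 12.82 ± 0.77 and 12.65 ± 0.43, a difference of -0.17 ± 0.34. The CH change minus the CN change was -1.46 and was not called (adjusted p = 0.282, limma). A second CST6 probe set gave -0.01 in CH heifers.

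MATK, a kinase that phosphorylates SRC family kinases (gene ID 504668), was at 6.95, 7.16, 6.63, 6.33 and 6.49 on day 13 and at 5.31, 5.61, 5.16, 4.70 and 4.42 on day 16. Its groups did not overlap either, and it fell by 1.67 ± 0.34 (adjusted p = 0.0105, limma), a call that held without any 1 array. Without the 3 arrays the difference was -1.25 ± 0.46 (adjusted p = 0.271, limma). ARSA, the lysosomal arylsulfatase A, fell from 9.65 ± 0.14 to 8.61 ± 0.23, by 1.04 ± 0.22 (adjusted p = 0.0152, limma), and its 5 day 16 values, 8.70, 8.69, 8.33, 8.43 and 8.90, all lay under the lowest day 13 value of 9.43. It was -0.95 ± 0.30 without the 3 arrays (adjusted p = 0.168, limma), and the call ended without CH day 16 replicate 3 or 4 (adjusted p up to 0.0751, limma).

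PIK3IP1, an inhibitor of phosphoinositide kinase (gene ID 512082), was at 7.75, 7.56, 7.83, 7.79 and 7.29 on day 13 and at 6.47, 6.54, 5.06, 6.43 and 7.25 on day 16. Day 16 replicate 5 came just under the lowest day 13 array, and replicate 3 was the lowest of all. The difference of -1.30 ± 0.27 (adjusted p = 0.0118, limma) lost its call without CH day 16 replicate 3, when it was -0.97 (adjusted p = 0.143, limma), and was -1.14 ± 0.33 without the 3 arrays (adjusted p = 0.122, limma). NKIRAS1, a regulator of NF-kappa-B inhibitors, fell by 1.27 ± 0.31 (adjusted p = 0.0427, limma) and without the 3 arrays by 1.92 ± 0.39 (adjusted p = 0.00724, limma), with a value of 3.84 on CH day 16 replicate 2 against 5.60 to 6.77 on the other day 16 arrays. BCAS3, a cytoskeletal regulator of cell polarity and autophagy, fell by 1.07 ± 0.24 (adjusted p = 0.0215, limma), and by 1.36 ± 0.32 without the 3 arrays (adjusted p = 0.0351, limma). CRHBP, the binding protein of corticotropin-releasing hormone, fell by 1.26 ± 0.25 to 2.68 ± 0.22, near the floor (adjusted p = 0.00824, limma), so this difference is compressed, and it was -1.11 ± 0.33 without the 3 arrays (adjusted p = 0.147, limma).

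Some of the lower genes were low, among the 10 arrays, on the 3 that stand apart. For 11 of the 21 lower genes the mean shift from day 13 was over 1.5 times as large on these 3 arrays as on replicates 1 and 2. The same held for 7 of the 17 higher genes. SLC25A5, an ADP/ATP carrier of the mitochondrial inner membrane, ran from 10.83 to 11.85 on day 13, was 11.37 and 11.49 on CH day 16 replicates 1 and 2, and 9.93, 9.85 and 10.18 on replicates 3, 4 and 5. Its difference of -0.87 ± 0.21 (adjusted p = 0.0427, limma) was 0.00 ± 0.23 without the 3 arrays, and its second probe set gave 0.22. AP1S1, a subunit of the AP-1 clathrin adaptor, was 6.73 and 6.64 on replicates 1 and 2 and 5.33, 5.20 and 5.38 on replicates 3 to 5, against 6.43 to 6.66 on day 13. Its -0.72 ± 0.18 (adjusted p = 0.0495, limma) turned to 0.11 ± 0.18 without the 3 arrays.

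The remaining 11 lower genes were called with smaller differences than DGAT2, MATK and CST6. ERGIC3, a cargo receptor between the endoplasmic reticulum and the Golgi, fell by 0.83 ± 0.20, SDF4, a calcium-binding Golgi protein, by 0.79 ± 0.18, and VPS36, an ESCRT-II subunit, by 0.37 ± 0.09. RAC3, a small GTPase, fell by 0.91 ± 0.22, although its second probe set gave 0.03. OCIAD2, a mitochondrial protein, fell by 0.99 ± 0.23 and ALDH9A1, an aldehyde dehydrogenase of carnitine synthesis, by 0.82 ± 0.18. DCAF4 and UBE2Z, both of the ubiquitin system, fell by 0.66 ± 0.14 each. IL20RA, a receptor chain for IL-20 family cytokines, fell by 0.68 ± 0.15 to near the floor, MIOS, a subunit of the GATOR2 complex, by 0.52 ± 0.13, and TPD52L2, a tumor protein D52 family member, by 0.42 ± 0.10. All 11 had adjusted p values of 0.0107 to 0.0436 (limma), and none was called without the 3 arrays (adjusted p 0.151 to 0.85, limma). Without those arrays the differences ran from -0.79 for ALDH9A1 to -0.27 for UBE2Z and TPD52L2.

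The oxytocin receptor did not pass the test in CH heifers. OXTR (gene ID 281371) was at 2.83, 6.87, 7.72, 2.86 and 4.84 on day 13 and at 5.61, 8.76, 8.26, 5.07 and 8.50 on day 16, so the groups overlapped, and day 13 already held arrays near the floor beside arrays above 6. The difference was 2.22 ± 0.82 (adjusted p = 0.271, limma) and 2.16 ± 1.08 without the 3 arrays. With array weights, which called 4904 probe sets in all, it was 2.19 and was called (adjusted p = 0.0268, limma). In CN heifers OXTR went from 2.91 ± 0.55 to 5.84 ± 1.19, a difference of 2.92 ± 0.82 that was not called either (adjusted p = 0.0764, limma), and in PH heifers from 3.88 ± 1.57 to 3.73 ± 1.28. Among the 18 genes of the oxytocin and prostaglandin list 0 were called, and 13 were higher on day 16 with a median of 0.13, against 57.2% of all genes higher and a median of 0.03. PTGS2, the inducible cyclooxygenase, differed by -0.08 ± 0.59, with day 16 values from 8.04 to 11.74. PTGS1, the constitutive cyclooxygenase, differed by 0.66, PTGER2, a prostaglandin E2 receptor, by 0.60, and AKR1B1, a prostaglandin F synthase of the bovine endometrium, by -0.61, each with an adjusted p of at least 0.368 (limma).

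The probe sets of the ovarian steroid receptors PGR and ESR1 were near the floor on both days. Their means over all arrays of the series were also near the floor, at 2.78 for PGR and 2.50 for ESR1. These probe sets therefore cannot show whether either receptor was absent, lost or changed between the days. PGR, the progesterone receptor, was at 2.48 ± 0.43 and 2.55 ± 0.49 and ESR1, the estrogen receptor alpha, at 2.20 ± 0.05 and 2.30 ± 0.28, and neither difference was called. Of the 14 steroid receptor and cofactor genes 0 were called.

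Of 36 uterine secreted and transport genes of the luteal phase CST6 fell and 0 rose, where 0.229% of all genes were called lower and 0.186% higher. In this list 14 genes were higher and 22 lower on day 16. The median was -0.19, which became -0.01 without the 3 arrays that stand apart. The array means of the list were 7.92, 7.54, 7.79, 7.91 and 7.66 on day 13 and 7.55, 7.48, 7.58, 7.33 and 7.42 on day 16, so CH day 16 replicates 2, 4 and 5 lay below every day 13 array. This list was drawn in part from published work on these animals. IGFBP1, an insulin-like growth factor binding protein that is a marker of the receptive bovine uterus, differed by -0.31 ± 0.47 and stayed at 9.58 ± 0.97 and 9.26 ± 1.27. LTF, the iron-binding protein lactoferrin, differed by -0.65 ± 0.77, DKK1, a Wnt antagonist, by -0.63 ± 0.68, MEP1B, a meprin protease subunit, by -0.08 ± 0.44, and ANPEP, an aminopeptidase, by 0.08 ± 0.50, and 0 of these 5 genes passed (adjusted p 0.744 to 0.969, limma). IGFBP1 had changed by 6.62 between day 7 and day 13, MEP1B by 4.84 and ANPEP by -6.16, all called in CH heifers.

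SLC2A1, the glucose transporter GLUT1, showed no called change in CH heifers, at 10.55 ± 0.44 on day 13 and 10.62 ± 0.42 on day 16, a difference of 0.07 ± 0.27. It rose in CN heifers by 1.39 ± 0.27 (adjusted p = 0.00242, limma), in PH heifers by 1.24 ± 0.27 (adjusted p = 0.00231, limma) and in PN heifers by 1.44 ± 0.27 (adjusted p = 0.000612, limma). The CH change minus the CN change was -1.32 and was not called (adjusted p = 0.191, limma). Among 29 glucose and glycolysis genes PGAM1 rose and 0 fell, where 0.186% of all genes were called higher and 0.229% lower. The median difference of the list was 0.03.

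Lipid genes were described by 2 lists. Of 27 fatty acid and triglyceride genes DGAT2 fell and 0 rose, where 0.229% of all genes were called lower and 0.186% higher. The median of these 27 genes was -0.05. Of the 18 cholesterol synthesis genes, whose pathway makes the membrane sterol from acetyl-CoA, 0 were called in CH heifers, with 7 higher, 11 lower and a median of -0.10. In CN heifers the median of these 18 genes was 0.45, in PH heifers 0.50 and in PN heifers 0.25, with 0 called in CN, and 17 of the 18 differences were lower in CH than in CN heifers. No single one of these 18 differences of changes was called, so the gap is a description. INSIG1, the sterol-sensing retention protein, differed by 0.11 ± 0.32 in CH heifers, 1.13 ± 0.32 in CN heifers and 1.12 ± 0.32 in PH heifers. The array means of the list ran from 7.44 to 8.03 on day 13 and from 7.38 to 8.23 on day 16.

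**Figure D3:**
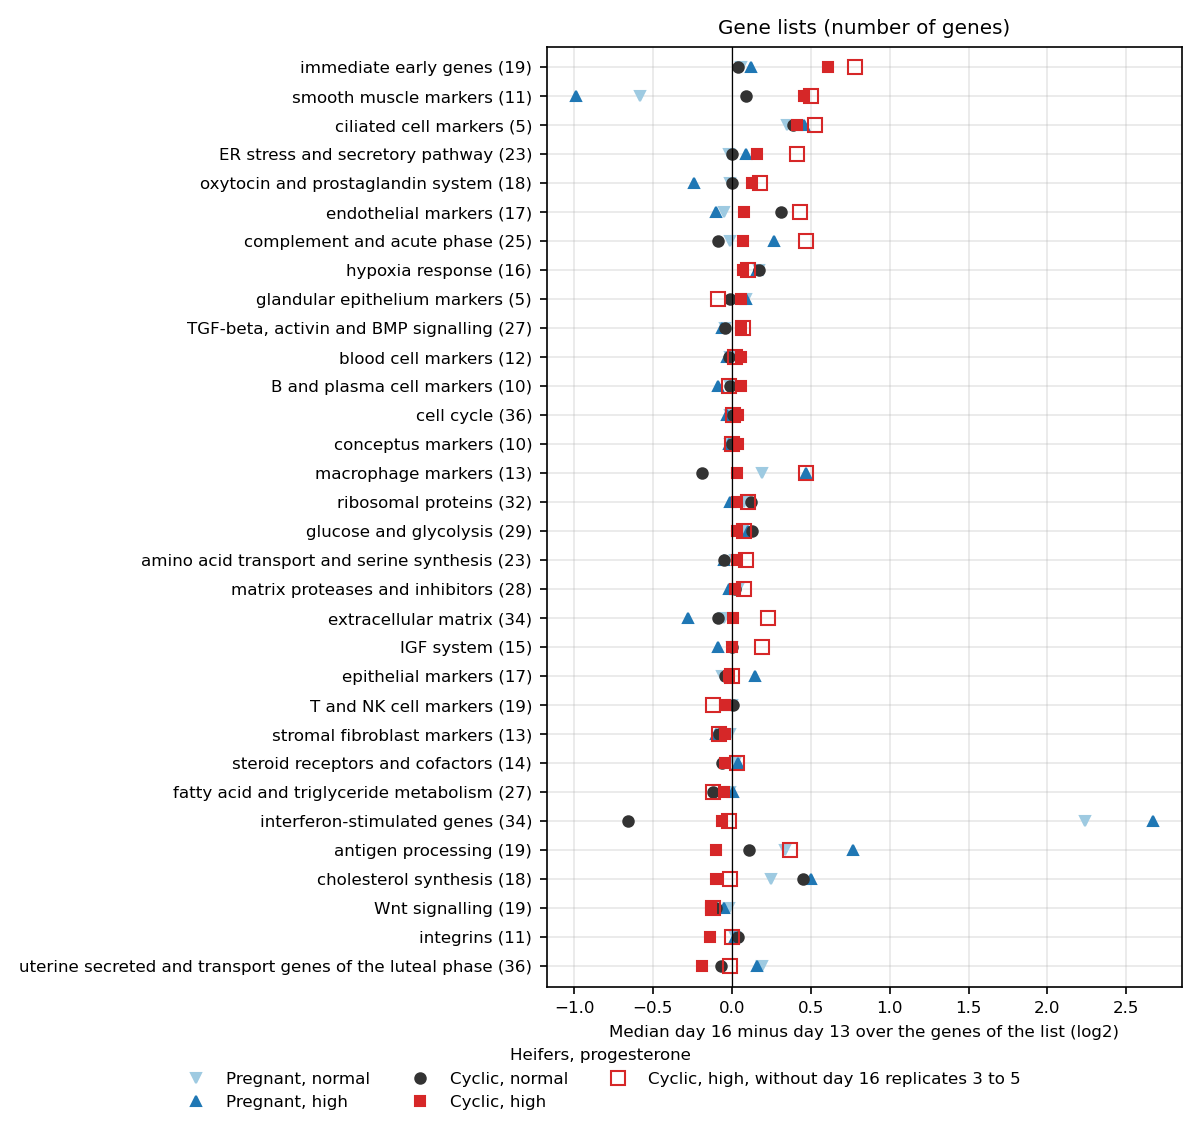
Median difference day 16 minus day 13 (x axis, log2) over the genes of each list (y axis, number of genes in brackets), in CH heifers with all arrays (filled squares) and without day 16 replicates 3 to 5 (open squares), and in CN, PH and PN heifers. Immediate early genes have the highest median in CH heifers, 0.61, against 0.04 in CN heifers, and interferon-stimulated genes are at -0.06 in CH heifers against 2.67 in PH heifers.

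Immediate early genes, the transcription factors and regulators that cells switch on within minutes of a stimulus, were mostly higher on day 16 but none was called. Of 19 genes 0 were called, 18 were higher on day 16, and the median was 0.61, against 0.04 in CN heifers and 0.12 in PH heifers. FOS, a subunit of the AP-1 factor, differed by 1.41 (adjusted p = 0.216, limma), ATF3, a stress-induced factor, by 1.29 (adjusted p = 0.343), EGR1, a zinc finger factor, by 1.05 (adjusted p = 0.517), and FOSL1 by 0.85 (adjusted p = 0.111). The array means of the list showed that the shift was not shared by all animals. They were 7.35, 7.83, 7.44, 7.19 and 7.27 on day 13 and 8.53, 7.82, 9.07, 7.35 and 7.12 on day 16, so that replicates 1 and 3 were high and replicates 2, 4 and 5 lay within or below the day 13 range. Without the 3 arrays that stand apart the median was 0.78 and 19 of 19 genes were higher, over 2 day 16 arrays.

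Endoplasmic reticulum stress and secretory pathway genes included the called CREB3L2 and HSPA5. Of 23 genes 2 rose and 0 fell, where 0.186% of all genes were called higher. The genes ERGIC3, SDF4 and AP1S1, which were called lower, were not on this list. On day 16 19 of the 23 were higher, against 57.2% of all genes, and the median was 0.16, against 0.03 over all genes and 0.00 for the list in CN heifers. HSP90B1, the chaperone GRP94, differed by 0.50 (adjusted p = 0.13, limma), MANF, a stress-induced secreted factor, by 0.52 (adjusted p = 0.398), and PDIA3, a disulfide isomerase, by -0.26 (adjusted p = 0.647). The array means were 8.63 to 8.99 on day 13, 9.03 and 9.37 on CH day 16 replicates 1 and 2, and 8.73 to 9.06 on replicates 3 to 5. Leaving out the 3 arrays, the median was 0.41 and 21 genes were higher.

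Of the 3 lists of immune genes only that of complement and acute phase genes held a called member, CFI. Of 34 interferon-stimulated genes 0 were called in CH heifers and the median was -0.06, against -0.66 in CN, 2.67 in PH and 2.24 in PN heifers. Of 25 complement and acute phase genes CFI rose and 0 fell, where 0.186% of all genes were called higher and 0.229% lower. The median of these 25 genes was 0.07 against -0.09 in CN heifers, and 0.47 with the 3 arrays that stand apart left out. Of 19 antigen processing genes 0 were called, with a median of -0.10 that became 0.37 without the 3 arrays that stand apart, whose list means of 8.99, 8.38 and 9.30 lay under the 9.77 and 9.82 of CH day 16 replicates 1 and 2. SAA3, an acute phase protein, differed by -0.86 and HP, haptoglobin, by 1.36, and neither was called.

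In the serine synthesis pathway, listed with the amino acid transport genes, the 3 enzymes had negative differences that did not pass the test on their main probe sets. PHGDH, phosphoglycerate dehydrogenase, differed by -1.05 (adjusted p = 0.406, limma). PSPH, phosphoserine phosphatase, differed by -1.73 (adjusted p = 0.131, limma), while its second probe set was called at -2.30 ± 0.53 (adjusted p = 0.029, limma). PSAT1, phosphoserine aminotransferase, differed by -1.28 (adjusted p = 0.0964, limma). In CN heifers PSPH differed by -1.20 and PSAT1 by -2.39. Of the 23 genes of the list 0 were called, 12 were higher and 11 lower.

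In the remaining pathway lists 0 genes were called. The medians were 0.04 for 36 cell cycle genes, 0.01 for 34 extracellular matrix genes, 0.02 for 28 matrix proteases and inhibitors, -0.14 for 11 integrins, 0.07 for 16 hypoxia response genes and 0.03 for 32 ribosomal protein genes. They were 0.00 for 15 genes of the IGF system, -0.13 for 19 Wnt signalling genes and 0.06 for 27 genes of TGF-beta, activin and BMP signalling. The Wnt ligand WNT11 differed by -1.34 (adjusted p = 0.173, limma). Of the 34 extracellular matrix genes 17 were higher and 17 lower on day 16. LUM and BGN, small proteoglycans of the matrix, differed by -0.91 (adjusted p = 0.141) and -0.77 (adjusted p = 0.119), against -0.13 and 0.15 in CN heifers.

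Markers of cell types were compared to show what moved with these genes. In whole tissue a change in the number of cells of a type and a change of RNA per cell cannot be told apart. Of 11 smooth muscle markers 0 were called, 10 were higher on day 16, and the median was 0.46, against 0.09 in CN, -0.99 in PH and -0.58 in PN heifers. ACTA2, smooth muscle actin, differed by 1.63 (adjusted p = 0.329, limma), CNN1, calponin, by 1.06 and DES, desmin, by 0.89. The smooth muscle array means were 7.42, 7.86, 7.73, 7.15 and 7.70 on day 13 and 8.10, 8.42, 8.47, 8.27 and 7.66 on day 16, so 4 of 5 day 16 arrays lay above all day 13 arrays. Their part in the called genes was not tested.

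The median of 17 epithelial markers was -0.02, of 5 glandular epithelium markers 0.06, of 13 stromal fibroblast markers -0.04 and of 17 endothelial markers 0.08. Without the 3 arrays that stand apart the endothelial median was 0.43. The 5 ciliated cell markers were all higher, with a median of 0.41 beside 0.39 in CN, 0.46 in PH and 0.35 in PN heifers. The medians were 0.03 for 13 macrophage markers, which became 0.47 with 12 of 13 higher without the 3 arrays, -0.04 for 19 T and NK cell markers, 0.06 for 10 B and plasma cell markers, 0.06 for 12 blood cell markers and 0.04 for 10 conceptus markers. None of the markers of these 10 lists was called. Endothelial cells of venules are known to carry ACKR1. The array means of the endothelial markers were 5.41 to 6.05 on day 13 and 6.11, 6.23, 6.01, 5.68 and 5.33 on CH day 16 replicates 1 to 5. ACKR1 was at 6.24, 3.55, 5.83, 5.57 and 3.50 on the same day 16 arrays. The part of endothelial cells in the ACKR1 difference was not tested.

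The called genes of CH heifers were then set beside the same days in the other heifers. Of the 17 higher genes 10 also had a positive difference in CN heifers and 11 in PH heifers, with medians of 0.07 and 0.20 against 0.71 in CH, and 0 were called in CN and 1, SUGT1, in PH. Of the 21 lower genes 11 were negative in CN and 15 in PH, with medians of -0.02 and -0.10 against -0.87 in CH. DGAT2 was called in both, and MIOS in PH. In PN heifers DGAT2 was called as well, and PA2G4 was called at 0.43 ± 0.12 (adjusted p = 0.0435, limma). BCAS3, lower in CH, was called in PN in the other direction, at 0.85 ± 0.24 (adjusted p = 0.0468, limma). The called members were chosen in CH heifers, so their larger size there is a description. In all, 81 genes were called in CN heifers (0.885%), 468 in PH heifers (5.11%) and 218 in PN heifers (2.38%).

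**Figure D4:**
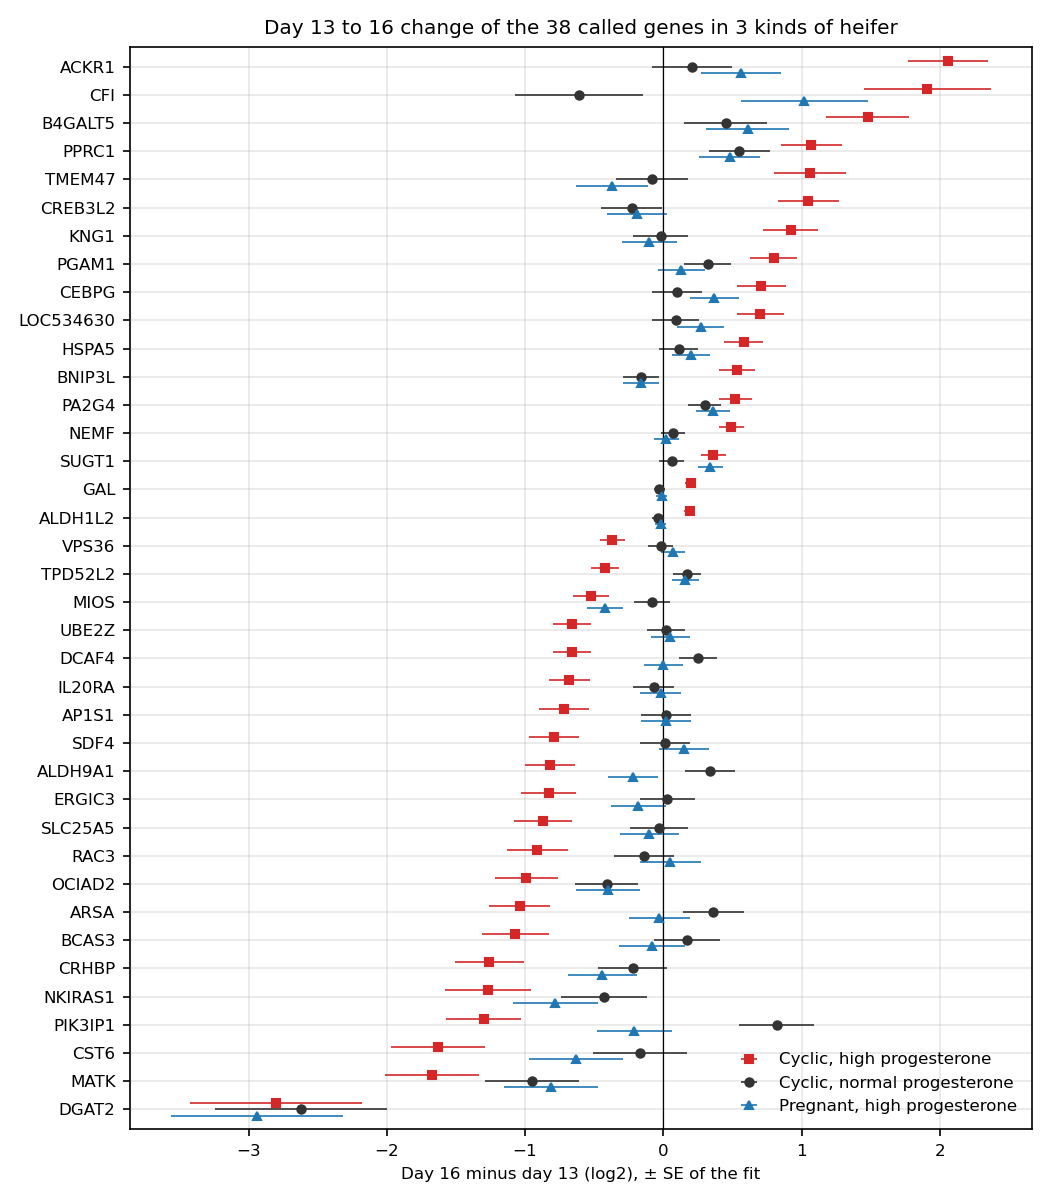
Difference day 16 minus day 13 (x axis, log2, ± SE of the fit) of the 38 genes called in CH heifers, in CH (squares), CN (circles) and PH (triangles), 5 arrays per group and day. DGAT2 lies at -2.80, -2.62 and -2.94 in the 3 groups, whereas PIK3IP1 lies at -1.30 in CH heifers and at 0.82 in CN heifers.

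The difference between the change in CH and the change in CN heifers was tested directly. Among the 9155 genes 4 were called (0.0437%), all with the lower change in CH heifers, and among all probe sets 10 (0.0416%), 3 with the higher and 7 with the lower change. With median centring 17 probe sets were called, 8 higher and 9 lower. CRYGS, a lens crystallin that is also expressed in the uterus (gene ID 281724), showed the largest: CN heifers had 2.94 ± 1.36 on day 13 and 8.74 ± 1.05 on day 16, a rise of 5.80 ± 0.74 (adjusted p = 8.69e-07, limma). CH heifers had 5.46, 2.87, 8.59, 6.06 and 3.98 on day 13 and 5.74, 6.44, 5.18, 4.53 and 7.78 on day 16, so their day 13 arrays spread from near the floor up to the CN level of day 16 and the days overlapped. The difference of changes was -5.26 ± 1.05 (adjusted p = 0.0204, limma). It was -5.11 without the 3 arrays that stand apart (adjusted p = 0.0901, limma), and the call ended without CN day 13 replicate 3 or 5, CH day 13 replicate 3 or CH day 16 replicate 4 (adjusted p up to 0.116, limma).

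PIK3IP1 differed by -2.12 ± 0.39 between the changes (adjusted p = 0.00873, limma). CN heifers went from 7.29 ± 0.44 to 8.11 ± 0.31, a difference of 0.82 ± 0.27 that was not called by itself, while CH heifers went from 7.65 ± 0.23 to 6.35 ± 0.80. This call held without any 1 of the 20 arrays (adjusted p up to 0.0354, limma) and without the 3 arrays that stand apart, at -1.96 (adjusted p = 0.032, limma). It ended with a term for the arrays with bioC above bioB (-1.97, adjusted p = 0.0633, limma). A second probe set of PIK3IP1 gave -1.68 and was not called (adjusted p = 0.145, limma). DCAF4, a substrate receptor of ubiquitin ligases, differed by -0.91 (adjusted p = 0.0376, limma) and DDX41, a DEAD-box helicase, by -0.82 (adjusted p = 0.0204, limma), and without the 3 arrays they were at -0.58 (adjusted p = 0.434, limma) and -0.52 (adjusted p = 0.39, limma). Of the 20 omissions of 1 array 9 ended the call of DCAF4 and 5 that of DDX41. A fit of the 20 compared arrays alone called 0 probe sets, with 2584 at an unadjusted p under 0.05 (limma).

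**Figure D5:**
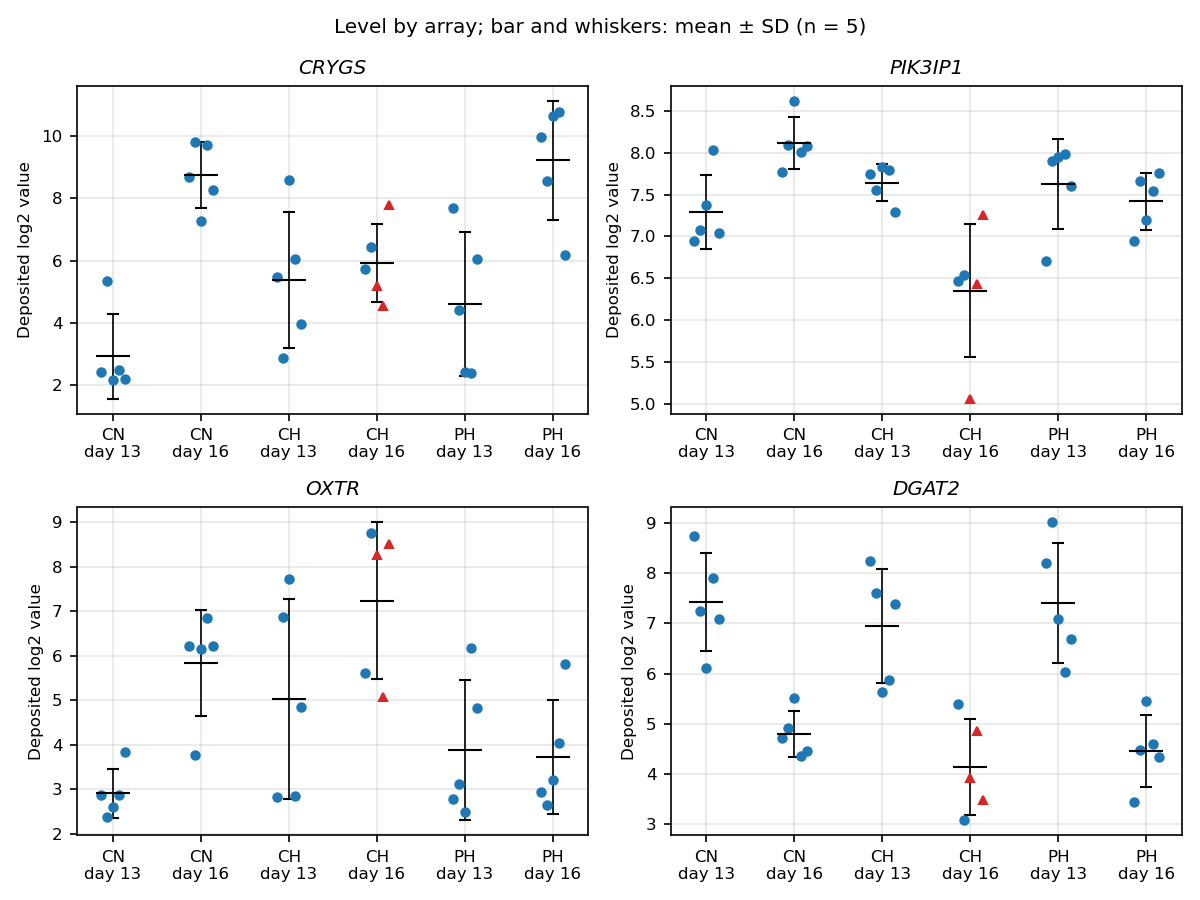
Deposited log2 value (y axis) of CRYGS, PIK3IP1, OXTR and DGAT2 on day 13 and day 16 in CN, CH and PH heifers, 1 point per array with mean ± SD (n = 5). Triangles are CH day 16 replicates 3 to 5. CRYGS rises from 2.94 to 8.74 in CN heifers and spreads from 2.87 to 8.59 on day 13 in CH heifers, and DGAT2 falls in all 3 groups.

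The change in CH heifers was also tested against that in PH heifers, which carried the same device and a conceptus. Here 104 genes were called (1.14%), 96 with the lower change in CH heifers (1.05%) and 8 with the higher (0.0874%). Among all probe sets 213 were called. The count was 93 without the 3 arrays that stand apart, 55 of them among the 213, and 126 without PH day 13 replicates 1 and 4, which lay far from their group mean. Of the 34 interferon-stimulated genes 13 were called, all 13 lower in CH heifers. MX2, an interferon-induced antiviral GTPase, was at 2.17 ± 0.19 and 2.25 ± 0.27 in CH heifers and rose by 6.07 in PH heifers, a difference of -5.99 ± 1.39 (adjusted p = 0.0145, limma). IFIT2, another interferon-induced protein, stayed between 2.76 and 3.10 on all 10 CH arrays and differed by -4.48 ± 0.87 (adjusted p = 0.00324, limma), a call that held without any 1 array and without the 3 arrays that stand apart (adjusted p = 0.0312, limma). PLET1, a placenta-expressed membrane protein, differed by -4.55 ± 1.10, SAMD9, an interferon-responsive antiviral factor, by -4.33 ± 1.05 and CRYGS by -4.07 ± 1.05. Leaving out the 3 arrays that stand apart, MX2, PLET1, SAMD9 and CRYGS were no longer called (adjusted p 0.103 to 0.143, limma). The MX2 call ended without PH day 16 replicate 4 (adjusted p = 0.0626, limma). The CRYGS call ended without CH day 13 replicate 1, 3 or 4, PH day 13 replicate 3 or 4, CH day 16 replicate 3 or 4, or PH day 16 replicate 1, 3 or 4.

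In the other direction KCNMA1, the large-conductance calcium-activated potassium channel of smooth muscle, differed by 1.53 ± 0.38 (adjusted p = 0.0298, limma). It fell by 1.27 in PH heifers and differed by 0.26 ± 0.27 in CH heifers. Of its 4 probe sets another gave 0.07 for the difference of changes and was not called (adjusted p = 0.514, limma), while the remaining ones were called with the same sign. EDNRB, the endothelin B receptor, differed by 1.52 ± 0.41 (adjusted p = 0.0479, limma). In CH heifers it was at 2.58, 3.18, 3.27, 2.60 and 3.53 on day 13 and at 5.62, 3.28, 5.36, 2.65 and 2.53 on day 16, so only replicates 1 and 3 were raised, the same 2 arrays that were highest for the immediate early genes. TMEM47 differed by 1.42 ± 0.36, CREB3L2 by 1.24 ± 0.31 and ATP13A2, a lysosomal polyamine transporter, by 0.93 ± 0.24, with adjusted p between 0.0273 and 0.0369 (limma). The other ATP13A2 probe sets gave 0.044 and 0.025 and were not called (adjusted p 0.919 to 0.949, limma). The calls of these 5 genes were lost in 7 to 14 of the 20 omissions of 1 array, and EDNRB alone was called without the 3 arrays that stand apart, at 2.08 (adjusted p = 0.00349, limma). That EDNRB call rested on 2 CH day 16 arrays, at 5.62 and 3.28, and day 13 reached 3.53. In a fit of the 20 compared arrays alone EDNRB differed by 1.52 ± 0.68 and was not called (adjusted p = 0.636, limma). With quantile normalization EDNRB (adjusted p = 0.0709, limma) and ATP13A2 (adjusted p = 0.0694) were not called, and ATP13A2 was not called with median centring (adjusted p = 0.0542) or array weights (adjusted p = 0.0507). Leaving out the 2 PH day 13 arrays ended the calls of EDNRB, TMEM47, CREB3L2 and ATP13A2 (adjusted p 0.0541 to 0.191, limma). Smooth muscle markers moved beside these genes, with medians of 0.46 in CH and -0.99 in PH heifers, and their part in the differences was not tested. A fit of the 20 compared arrays alone called 0 probe sets here too, with 1828 at an unadjusted p under 0.05 (limma).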

How the data were processed

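Deposited log2 expression values of 24128 probe sets on 79 Affymetrix bovine arrays were used, from the authors' value table. The labels' protocols give Trizol extraction of endometrial RNA, column DNase treatment and biotin-labelled cRNA. The names RMA, GCRMA and limma stand in the submitters' processing notes without versions. Whether RMA or GCRMA gave the deposited log2 values is not given in the sources used here, so the background correction of low values is unknown. Of the probe sets 112 controls were left out of the tests. Gene symbols came from the platform annotation, with 13292 probe sets of 1 symbol, 86 of several and 10638 without. A current cattle gene table, used for names only, held 13263 of their gene IDs and changed 0 symbols.

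Group means of the 16 groups were fitted with limma 3.58.1 in R 4.3.3 over all 79 arrays, with 63 residual degrees of freedom, empirical Bayes moderation and Benjamini-Hochberg adjustment over 24016 probe sets at 0.05. The day 16 minus day 13 change in cyclic heifers with high progesterone was tested, and its difference from the change in the cyclic heifers with normal and the pregnant heifers with high progesterone. The script was tested on simulated data. Tables and plots were made in Python 3.11.15 (pandas 2.3.3, matplotlib 3.10.9).

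The text names the 12 highest and 12 lowest called genes with a proper symbol, called members of 32 gene lists, a fixed set of genes such as OXTR and PTGS2, and the 5 highest and 5 lowest called differences of changes. SUGT1, NEMF, GAL, ALDH1L2, LOC534630 and the smaller called decreases complete the called genes and were added after their values were seen. The comparison, the lists and the rule were chosen with earlier results of these data known. The number of arrays limits the precision. Arrays are labelled as biological replicates, no 2 arrays held like values (highest correlation 0.9932), and numbers did not pair them. The alternatives were other normalizations, filters, moderation, array weights, a replicate block, a fit of the compared arrays alone and the omission of each array. The omission of the 3 arrays with unusual controls, a term for them, and the omission of 2 other arrays were added after seeing the data.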

Additional observations from a re-analysis of the deposited data

Results flagged for a closer look

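Of 136 groups of 5 values examined for a lone array, 5 held one, a smaller share than the about 1 in 20 that chance gives. ERGIC3 was at 8.76 on CH day 13 replicate 2, under the 9.03 to 9.14 of the other 4 arrays. DKK1, the Wnt antagonist, was at 3.92 on CH day 13 replicate 3, far under the 7.77 to 8.95 of the other 4. The mean of the cholesterol synthesis genes was 8.23 on CH day 16 replicate 2, above the 7.38 to 7.61 of the other day 16 arrays. The mean of the macrophage markers was 6.28 on CH day 13 replicate 4, above 5.25 to 5.44. The mean of the T and NK cell markers was 3.71 on CH day 16 replicate 3, barely above 3.62 to 3.64.

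A direct test of the difference of changes picked out these genes (limma, adjusted p under 0.05). Between CH and CN heifers they were CRYGS at -5.26, PIK3IP1 at -2.12, DCAF4 at -0.91 and DDX41 at -0.82, negative where the change was lower in CH heifers. Between CH and PH heifers the lowest were MX2 at -5.99, PLET1 at -4.55, IFIT2 at -4.48, SAMD9 at -4.33 and CRYGS at -4.07. The highest were KCNMA1 at 1.53, EDNRB at 1.52, TMEM47 at 1.42, CREB3L2 at 1.24 and ATP13A2 at 0.93.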

How the results depend on the processing

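The counts of called probe sets, 80 for the change in CH heifers, 10 for its difference from CN and 213 for its difference from PH, moved with several choices, and the causes were not tested. With only the compared arrays in the fit all 3 counts were 0 (limma), with 2427, 2584 and 1828 probe sets at an unadjusted p under 0.05, and with the replicate number as a block they were 0 as well, with 2134, 2272 and 1763. The numbers did not pair the animals: the deviations of same-numbered day 13 and day 16 arrays had mean correlations of -0.027 in CH, -0.0465 in CN and -0.0833 in PH. Array weights gave 4904, 1807 and 974. Probe sets above the median level gave 43 for the change and 19 for the difference from CN, and probe sets with 1 symbol gave 46, 20 and 129, where fewer were tested. Quantile normalization gave 23 and median centring 17 for the difference from CN. Without the 3 CH day 16 arrays with high bioC the difference from PH gave 93, of which 55 were among the 213. A term for the arrays with high bioC gave 20, 2 and 74, and leaving out PH day 13 replicates 1 and 4, the arrays far from their group mean, gave 126 for the difference from PH. With 1 array left out the counts ran from 13 to 250, from 2 to 74 and from 90 to 534. The lowest came without CH day 16 replicate 3, CH day 13 replicate 3 and PH day 16 replicate 4, and the highest without CH day 16 replicate 1, CH day 16 replicate 2 or CN day 13 replicate 4 (both 74), and PH day 16 replicate 5. Other counts were within 1.5 times of these.

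Of the 24 named genes called in CH, 3 kept their call without any 1 array (ACKR1, CST6 and MATK), while 19 lost it without CH day 16 replicate 3. Most signs that turned belonged to genes not called in CH heifers, and AP1S1, which was called, turned to 0.11 without the 3 arrays. On those arrays' omission PTGS2 was 0.16, IGFBP1 0.27, MEP1B 0.62, ANPEP -0.097, SLC2A1 -0.032 and INSIG1 -0.084. With the spike-in term IGFBP1 was 0.019, MEP1B 0.33, ANPEP -0.14 and INSIG1 -0.16, and with array weights PGR was -0.071. Other probe sets turned the sign of SLC25A5 (0.22), RAC3 (0.032) and LTF (0.094). With 1 array left out PTGS2 ran from -0.58 to 0.34, MEP1B from -0.43 to 0.30, CRYGS from -0.089 to 1.34, INSIG1 from -0.053 to 0.33, SLC2A1 from -0.064 to 0.24, PGR from -0.14 to 0.25, ESR1 from -0.022 to 0.17 and ANPEP from -0.027 to 0.23.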

Other observations

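Beyond the 38 genes, 8 further genes had a called probe set that did not stand for the gene because it was not its brightest, PSPH among them (limma, adjusted p under 0.05). ACTN4, an actin cross-linking protein, fell by 1.03 ± 0.21 on the called probe set and differed by -0.45 ± 0.13 on the brightest one. DECR1, the mitochondrial dienoyl-CoA reductase of fatty acid oxidation, fell by 0.66 ± 0.14 and differed by -0.54 ± 0.20 on its brightest probe set. DECR2, the peroxisomal enzyme of the same step, fell by 0.81 ± 0.20, while the brightest probe set gave -0.08 ± 0.16. TRMU, a mitochondrial tRNA thiolase, fell by 0.56 ± 0.14, close to the -0.55 ± 0.18 of the brightest probe set. INO80, a chromatin remodelling ATPase, rose by 0.92 ± 0.20 but gave 0.17 ± 0.16 on the brightest one. For EOGT, a glycosyltransferase, and ME3, a mitochondrial malic enzyme, the called probe sets gave 0.30 ± 0.07 and 0.34 ± 0.08 and the brightest ones -0.15 ± 0.17 and -0.27 ± 0.28, so the signs differed within each gene.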
